A study of Homo sapiens with 6 samples.

Results

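The genes described here are the DEAD-box and DEAH-box RNA helicases, taken as every gene whose symbol begins with DDX or DHX followed by a number and, in some, the letter A, B or X. This gave 54 of the 57773 genes in the table, 38 of them DDX and 16 DHX. RNA was measured in 3 libraries labelled as TRDMT1 knockdown and 3 labelled as control, all from HEK293, a long-established cell line derived from human embryonic kidney. TRDMT1, also called DNMT2, is a methyltransferase of tRNA cytosines. The labels do not give the agent or clone of the knockdown, the treatment of the control cells, or whether replicates were separate cultures. A p-value here sets the difference between the groups against the scatter of the 6 libraries within them, and part of that scatter may be technical.

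DEAD-box and DEAH-box proteins use ATP to separate short RNA duplexes or to strip proteins from RNA, and are named in one-letter amino acid code after a conserved motif of their ATP-binding core. DEAD-box members act locally and let go, while DEAH-box members move along a strand and often pull on it from a distance. Between them they remodel the spliceosome, the nucleolar precursors of ribosomes, messages at the nuclear pore, and messages on the ribosome or bound for decay.

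The labels were not borne out by the targeted gene. TRDMT1 stood at 0.58 RPKM in each of the 3 knockdown-labelled libraries, against 0.36, 0.36 and 0.28 RPKM in the control-labelled libraries (log2 fold change 0.61 ± 0.21, adjusted p = 0.0705 by edgeR's quasi-likelihood test). The groups did not overlap, and an exact two-sided permutation test gave p = 0.1, below which this design cannot go. Since the level of the gene goes against them, each group is called by its label, and "rose" and "fell" refer to the knockdown-labelled libraries. RPKM is the deposited read count scaled by exonic length and library total. The knockdown-labelled libraries held 36455950 to 40088993 counts, and the control-labelled libraries 24776040 to 26802182. Control replicate 2 stood apart, with a trimmed-mean (TMM) scaling factor of 0.812 against 0.997 to 1.07 in the other 5 libraries. Of 10 genes known from HEK293, 9 reached 1 RPKM in every library, with a summed level of 588 to 609 RPKM in the knockdown-labelled libraries and 684 to 740 in the control-labelled libraries. Of 11 markers of blood, fibroblast, liver, endothelium and muscle, 10 stayed under 1 RPKM in every library, with the collagen gene COL1A1 as the exception.

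Of the 48 helicase genes that passed the count filter, 13 fell, 2 rose and 33 were not called at an adjusted p of 0.05. Over all 17805 genes tested, 14.7% fell and 9.29% rose. The split between lower and higher depended on the scaling. It was 5 lower and 4 higher of 48 against plain library totals, and 4 lower and 4 higher of 44 tested by limma-trend on log2(RPKM + 1). The shares of all genes called in these fits are not given here. The median log2 fold change of the 48 helicase genes was −0.22, beside −0.04 over all genes tested. Against plain library totals the median of all genes moved up to 0.13 and that of the helicases was −0.04. These are bulk measurements, in which fewer cells expressing a gene and less RNA per cell cannot be told apart. In RPKM, the knockdown-labelled libraries lay wholly above the control-labelled libraries for 15 of the 48 helicase genes and wholly below for 12, where 32.2% and 18.3% of all genes tested did so, or 50.5% in either direction. The 6 helicase genes that failed the filter were DDX4, DDX5, DDX43, DDX53, DHX16 and DHX58.

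The counts of calls changed when single libraries were left out. Leaving out any 1 knockdown-labelled library, or control replicate 1, kept the calls of only 3 of the 15 genes, which were DHX36, DHX29 and DDX1. Leaving out control replicate 3 kept 14. The shares of all genes called in these fits are not given here, so the lost calls are not shown to be particular to the helicases. Where a call ended, the fitted value could still lie close to that with all libraries. Over the fits that left out 1 library, DDX3X ran between −0.79 and −0.68 and DDX24 between −0.63 and −0.52. DHX8 ran between 0.42 and 0.49, and DDX60 between −1.90 and −1.42. Leaving out control replicate 2 gave 20 lower and 9 higher of 48, against 25.6% lower and 22.9% higher over all genes. With a smooth trend over base composition and exonic length fitted and removed in each library ("trends removed" hereafter), 11 of 47 helicase genes fell and 1 rose, against 13% and 8.06% of all genes.

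**Figure D1:**
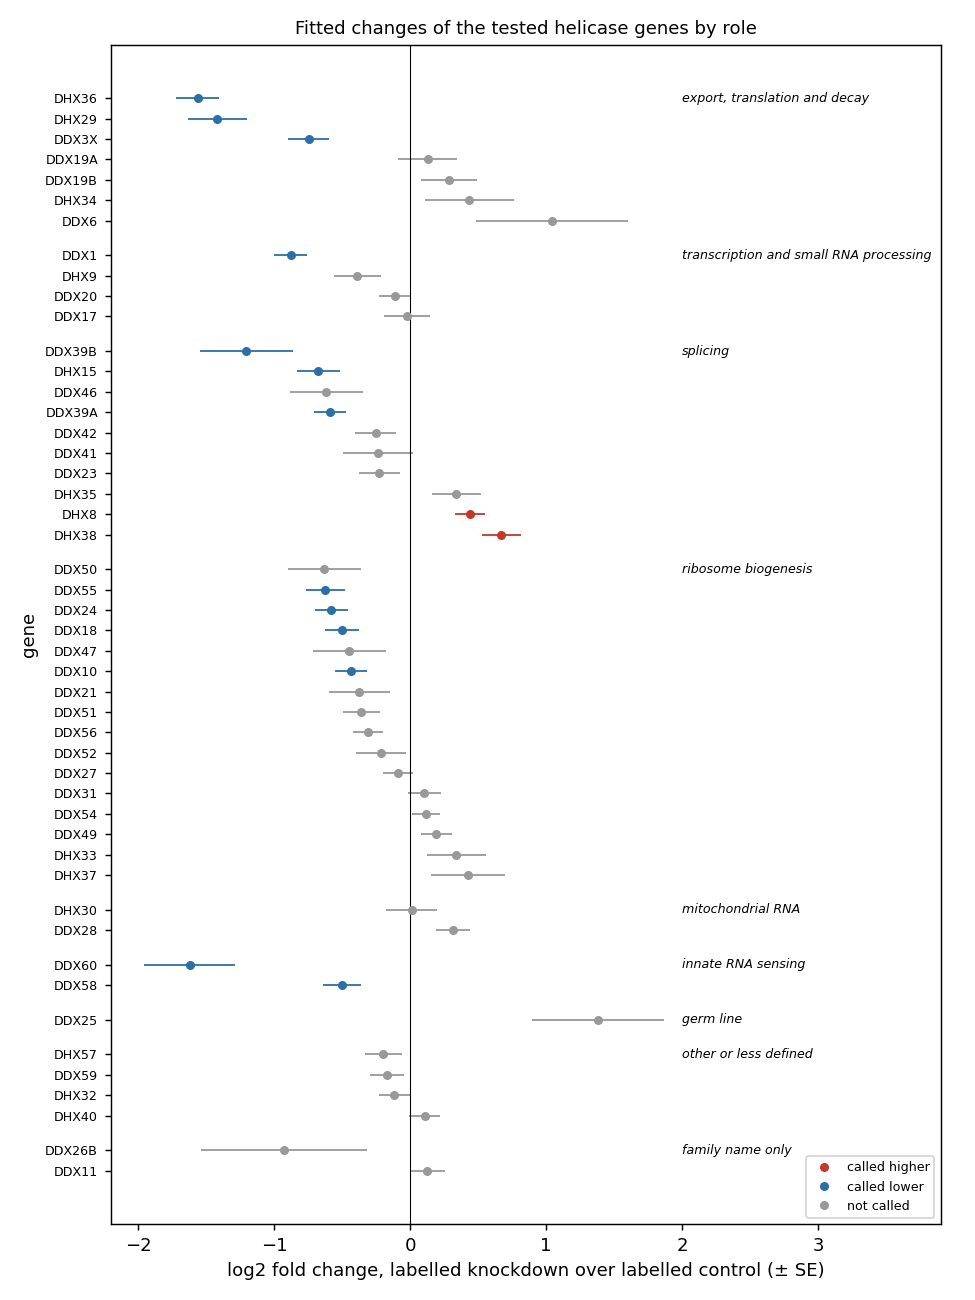
Fitted log2 fold changes (x axis, with SE), knockdown-labelled libraries over control-labelled libraries, for the 48 tested helicase genes (y axis), grouped by role. Blue marks the 13 called lower, red the 2 called higher and grey the 33 not called.

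The promoters of the genes that kept their call when any single library was left out, DHX36, DDX1 and DHX29, and of the genes that rose, DHX8 and DHX38, are shown so that the upstream sequence of genes that moved in opposite directions can be read side by side. The windows are the 250 bases before the RefSeq start on build GRCh38.p14, in the direction of the gene, at chr3:154324488-154324737 (minus strand), chr2:15591618-15591867 (plus strand), chr5:55307695-55307944 (minus strand), chr17:43483725-43483974 (plus strand) and chr16:72093597-72093846 (plus strand). Capitals mark matches, on either strand, to the 7 short motifs named after the sequences.
DHX36: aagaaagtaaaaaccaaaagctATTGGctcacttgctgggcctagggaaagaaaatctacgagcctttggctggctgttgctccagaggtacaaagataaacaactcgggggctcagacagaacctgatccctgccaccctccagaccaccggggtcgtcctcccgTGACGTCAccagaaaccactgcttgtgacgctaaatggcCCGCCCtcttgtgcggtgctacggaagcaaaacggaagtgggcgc
DDX1: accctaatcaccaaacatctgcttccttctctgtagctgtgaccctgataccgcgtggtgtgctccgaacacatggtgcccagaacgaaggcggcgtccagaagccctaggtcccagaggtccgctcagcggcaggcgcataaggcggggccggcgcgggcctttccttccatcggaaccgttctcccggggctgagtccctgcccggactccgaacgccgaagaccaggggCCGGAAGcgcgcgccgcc
DHX29: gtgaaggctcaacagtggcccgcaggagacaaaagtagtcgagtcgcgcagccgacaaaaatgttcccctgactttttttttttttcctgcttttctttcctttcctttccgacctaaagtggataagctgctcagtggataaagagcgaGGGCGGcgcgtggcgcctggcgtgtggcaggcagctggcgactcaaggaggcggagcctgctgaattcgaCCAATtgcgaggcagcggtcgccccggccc
DHX8: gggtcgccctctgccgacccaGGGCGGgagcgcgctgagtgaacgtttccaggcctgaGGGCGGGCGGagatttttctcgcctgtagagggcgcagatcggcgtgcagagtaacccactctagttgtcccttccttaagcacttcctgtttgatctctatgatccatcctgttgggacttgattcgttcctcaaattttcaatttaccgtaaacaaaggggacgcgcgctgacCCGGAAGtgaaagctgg
DHX38: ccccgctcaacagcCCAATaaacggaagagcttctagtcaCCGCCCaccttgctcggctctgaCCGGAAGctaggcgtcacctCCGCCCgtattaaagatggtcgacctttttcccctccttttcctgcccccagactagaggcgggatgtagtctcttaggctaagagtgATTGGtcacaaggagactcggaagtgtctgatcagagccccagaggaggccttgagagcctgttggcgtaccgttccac

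The motifs searched were the E-box CACGTG, an NRF1 motif made of GCGC and TGCGC with any 1 base between them, the ETS motif CCGGAAG, the CCAAT box CCAAT, the GC box GGGCGG, the YY1 motif AAGATGGCG and the cAMP response element TGACGTCA. RefSeq windows were matched for 47 of the 54 helicase genes, with 62 windows in all. The windows of all genes were not restricted to genes expressed here, so a higher share is not shown to be particular to helicases. The ETS motif was present in 29% of the helicase windows, against 8.52% of the 35116 windows of all genes. The E-box was present in 14.5% against 6.34%, the NRF1 motif in 9.68% against 5.07%, the CCAAT box in 43.5% against 32%, the GC box in 58.1% against 42.6%, the YY1 motif in 1.61% against 0.652% and the cAMP response element in 8.06% against 1.65%. Among the genes shown, DDX1, DHX8 and DHX38 hold an ETS motif and DHX36 holds a cAMP response element. No motif, on either strand, is contained in another. A match describes the letters and is not evidence of binding.

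Among helicases that act on messages in the cytoplasm and at the nuclear pore, 3 of 7 fell and 4 were not called, against 14.7% lower and 9.29% higher over all genes tested. DHX36, which unwinds G-quadruplexes in DNA and RNA, stood at 2.50, 2.53 and 2.49 RPKM in the knockdown-labelled libraries, against 7.28, 4.53 and 8.17 RPKM in the control-labelled libraries. It was 2.95-fold lower (log2 fold change −1.56 ± 0.16, adjusted p = 0.00129, edgeR), and its groups did not overlap. It was called lower in all 18 alternative fits. DHX29, which binds the small ribosomal subunit and helps it scan structured leaders, stood at 7.02, 6.97 and 6.63 RPKM in the knockdown-labelled libraries, against 19.84, 9.57 and 20.68 RPKM in the control-labelled libraries. Control replicate 2 was less than 10 RPKM and the other controls near 20, yet all 3 controls lay above the knockdown-labelled libraries (−1.42 ± 0.22, adjusted p = 0.00586, edgeR).

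DDX3X, a translation helicase of structured messages and the most abundant member, stood at 102.14, 98.06 and 95.25 RPKM in the knockdown-labelled libraries, against 161.37, 117.88 and 163.23 RPKM in the control-labelled libraries. The groups did not overlap (−0.75 ± 0.15, adjusted p = 0.0141, edgeR). Its adjusted p was up to 0.104 when a knockdown-labelled library or control replicate 1 was left out, and 0.0572 with trends removed.

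The remaining 4 of this group were not called. DDX19A, which strips proteins from messages leaving the nuclear pore, stood at 11.16, 11.22 and 11.15 RPKM in the knockdown-labelled libraries, against 7.77, 10.76 and 8.02 RPKM in the control-labelled libraries (0.13 ± 0.22, adjusted p = 0.696, edgeR). Its close paralog DDX19B stood at 6.75, 6.33 and 6.64 RPKM, against 4.74, 5.38 and 3.96 RPKM in the control-labelled libraries (0.28 ± 0.21, adjusted p = 0.339). Both were wholly above the controls in RPKM, but the fitted value of DDX19A turned to −0.06 with trends removed. Without control replicate 2 both were called higher (0.43, adjusted p = 0.000951, and 0.52, adjusted p = 0.00371). The RPKM ratio of DDX19A to DDX19B was 1.70 ± 0.06 in the knockdown-labelled libraries and 1.89 ± 0.22 in the control-labelled libraries (SD, n = 3 each), a difference within the spread of the controls. Exons of other annotated genes cover 26.9% of the exonic bases of DDX19A and 19.7% of those of DDX19B in GENCODE release 29, so how reads were shared between them is uncertain.

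DDX6, a factor of message storage and decapping, stood at only 1.76, 1.62 and 1.54 RPKM in the knockdown-labelled libraries, against 0.83, 0.14 and 1.26 RPKM in the control-labelled libraries (1.04 ± 0.56, adjusted p = 0.211, edgeR). Control replicate 2 held 35 of its reads, against 216 and 334 in the other controls and 587 to 636 in the knockdown-labelled libraries. Without that library DDX6 was called higher, with a smaller value of 0.59 (adjusted p = 0.0125). DHX34, of nonsense-mediated decay, stood at 12.94, 11.92 and 12.98 RPKM, against 10.70, 3.59 and 11.40 RPKM in the control-labelled libraries (0.44 ± 0.32, adjusted p = 0.352), and its value was 0.12 without control replicate 2.

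**Figure D2:**
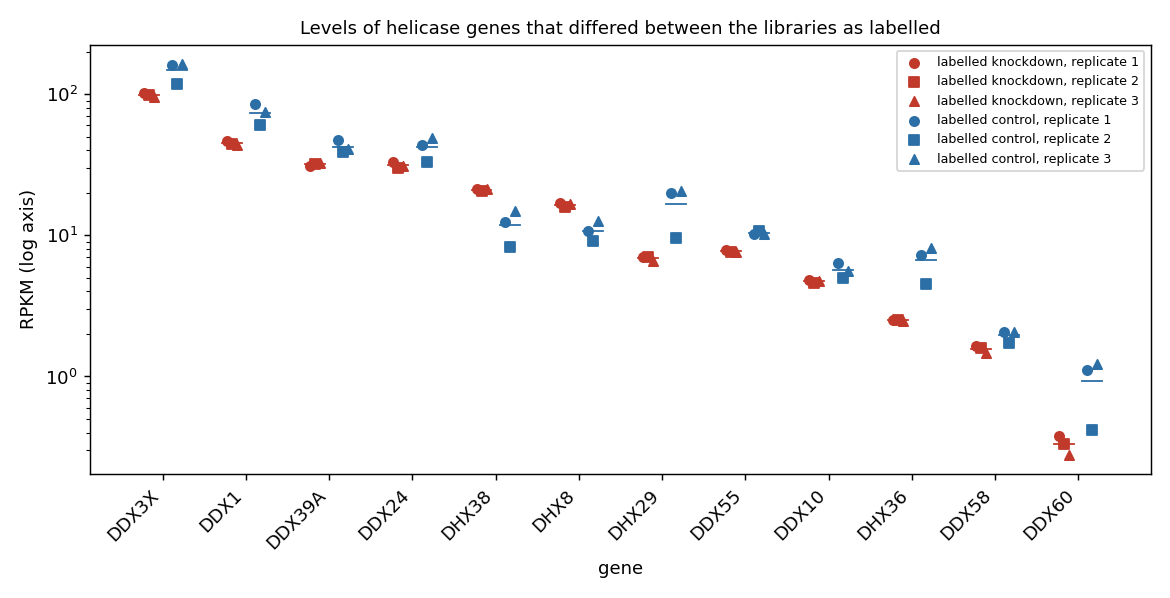
RPKM on a log axis for the 12 called genes with no overlap between groups and a mean of at least 0.2 RPKM, with knockdown-labelled libraries in red left of control-labelled libraries in blue, and lines at the means. The 3 red points of a gene lie close together, while control replicate 2 (blue square) is often the lowest control.

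Of the 5 helicases of transcription and small RNA processing, 1 fell, 3 were not called and 1 did not pass the filter, where 14.7% of all genes tested fell. DDX1, a subunit of the tRNA ligase complex that joins tRNA exons, stood at 46.60, 44.57 and 43.88 RPKM in the knockdown-labelled libraries, against 85.58, 60.63 and 74.74 RPKM in the control-labelled libraries. The groups did not overlap, and DDX1 was 1.84-fold lower (−0.88 ± 0.12, adjusted p = 0.00417, edgeR). It was called lower in all 18 alternative fits, with an adjusted p of at most 0.0455, and stood at −0.57 ± 0.10 with trends removed.

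DHX9, also called RNA helicase A, stood at 89.80, 82.66 and 83.47 RPKM in the knockdown-labelled libraries, against 111.63, 68.38 and 122.01 RPKM in the control-labelled libraries. Control replicate 2 was the lowest of all libraries and the other controls the highest, so the groups overlapped (−0.39 ± 0.17, adjusted p = 0.143, edgeR). Without that library DHX9 was called lower (−0.52, adjusted p = 0.000474). DDX20, a partner of the SMN protein in the assembly of spliceosomal particles, stood at −0.11 ± 0.11 (adjusted p = 0.484) and was called higher with trends removed (0.51 ± 0.11, adjusted p = 0.0235).

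DDX17, a coregulator of transcription and splicing, was among the most abundant members, at 109.34, 94.71 and 97.00 RPKM in the knockdown-labelled libraries, against 85.79, 87.10 and 96.56 RPKM in the control-labelled libraries. The groups overlapped (−0.02 ± 0.17, adjusted p = 0.936, edgeR). Its close paralog DDX5, an abundant protein of most human cell lines, had only 2, 2 and 3 counts in the knockdown-labelled libraries, against 3, 1 and 3 counts in the control-labelled libraries. These counts are too few to give a level of DDX5, and no ratio between the paralogs is given. Exons of other annotated genes cover 9.1% of the exonic bases of DDX5, and the part of the counting in its low value was not tested.

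Of 11 splicing helicases, 10 passed the filter, of which 2 rose, 3 fell and 5 were not called, beside 9.29% higher and 14.7% lower of all genes tested. Both that rose are DEAH-box helicases of the spliceosome. DHX38, which remodels the spliceosome before exon joining, stood at 21.32, 20.62 and 21.19 RPKM in the knockdown-labelled libraries, against 12.49, 8.33 and 14.86 RPKM in the control-labelled libraries (0.67 ± 0.15, adjusted p = 0.019, edgeR). DHX8, which releases the joined message, stood at 16.84, 15.75 and 16.79 RPKM, against 10.72, 9.16 and 12.57 RPKM in the control-labelled libraries (0.44 ± 0.11, adjusted p = 0.0295). Neither gene's groups overlapped. Exons of genes on the other strand cover 12.2% of the exonic bases of DHX38. Both calls ended with trends removed (0.45 ± 0.13, adjusted p = 0.0551, and 0.27 ± 0.10, adjusted p = 0.103). They also ended without control replicate 1 or any knockdown-labelled library, with adjusted p up to 0.0872 for DHX38 and 0.137 for DHX8.

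DDX39A, which serves splicing and message export, stood at 30.90, 31.88 and 32.58 RPKM in the knockdown-labelled libraries, against 47.08, 38.79 and 41.01 RPKM in the control-labelled libraries. The groups did not overlap (−0.59 ± 0.12, adjusted p = 0.0145, edgeR), and the change was larger with trends removed (−0.82 ± 0.11, adjusted p = 0.00518). Its adjusted p reached 0.0893 when a knockdown-labelled library or control replicate 1 was left out. DHX15, which takes apart spent spliceosomes, also fell (−0.67 ± 0.16, adjusted p = 0.0241), though its groups overlapped in RPKM, at 18.41 to 19.77 in the knockdown-labelled libraries against 18.61, 32.07 and 32.41 in the control-labelled libraries. That call ended with trends removed (−0.25 ± 0.12, adjusted p = 0.178) and when control replicate 1 or a knockdown-labelled library was left out (up to 0.118).

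DDX39B, the paralog of DDX39A, fell too (−1.20 ± 0.34, adjusted p = 0.0437, edgeR), but from a handful of reads. It had 14, 11 and 9 counts in the knockdown-labelled libraries, against 15, 17 and 16 in the control-labelled libraries, or 0.03 to 0.05 RPKM against 0.08 to 0.10 RPKM. Leaving out any 1 of the 6 libraries ended the call (adjusted p 0.0516 to 0.176). DHX16, a helicase of spliceosome activation, had 2 to 10 counts in each library and was not tested. Both genes lie in the major histocompatibility region of chromosome 6, where 21 of 27 protein-coding genes from DHX16 to DDX39B stayed under 1 RPKM in every library, or 77.8%, against 42.9% of 967 on the rest of that chromosome. In GENCODE release 29, 30.8% of the exonic bases of DDX39B also belong to other genes. The part of read sharing in these low values was not tested, and the levels of both genes are uncertain.

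The 5 splicing helicases that were not called ranged in log2 fold change between −0.62 for DDX46 and 0.34 for DHX35. DDX46, which acts early at the branch site, stood at 15.18, 13.99 and 14.04 RPKM in the knockdown-labelled libraries, against 23.69, 10.02 and 26.82 RPKM in the control-labelled libraries. Control replicate 2 was again the lowest of all 6 libraries, and without it DDX46 was called lower (−0.88, adjusted p = 2.37e-05). DDX23, DDX41 and DDX42 stood at −0.25 to −0.23. Without control replicate 2 DDX23 stood at −0.07, DDX42 at −0.11 and DDX41 at 0.14, and none of the 3 was called in that fit either.

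The nucleolar helicases of ribosome biogenesis formed the largest group, with 4 of 16 lower and 12 not called, where 14.7% of all genes tested were lower. DDX24 stood at 33.26, 30.22 and 31.09 RPKM in the knockdown-labelled libraries, against 43.52, 33.34 and 49.31 RPKM in the control-labelled libraries (−0.58 ± 0.12, adjusted p = 0.0163, edgeR). DDX55 stood at 7.89, 7.57 and 7.61 RPKM, against 10.16, 10.73 and 10.25 RPKM in the control-labelled libraries (−0.62 ± 0.14, adjusted p = 0.0224). In RPKM the controls of DDX55 agreed closely, control replicate 2 included. The lowest control of DDX24 lay just above the highest knockdown-labelled library. RPKM leaves out the TMM factor used in the fit. Without control replicate 2 DDX55 stood at −0.48 ± 0.08, beside −0.62, and was still called lower.

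DDX10 stood at 4.82, 4.61 and 4.74 RPKM in the knockdown-labelled libraries, against 6.35, 4.98 and 5.63 RPKM in the control-labelled libraries (−0.43 ± 0.12, adjusted p = 0.0364, edgeR), and DDX18 fell by 0.50 on the log2 scale (± 0.13, adjusted p = 0.0289) with overlapping groups in RPKM. With trends removed DDX10 stood at −0.05 ± 0.14 (adjusted p = 0.821), while DDX24 (−0.76 ± 0.09), DDX55 (−0.70 ± 0.12) and DDX18 (−0.51 ± 0.10) were still called, and DDX51 (−0.67 ± 0.10) and DDX56 (−0.57 ± 0.11) were called lower as well, beside −0.36 ± 0.13 and −0.31 ± 0.11 without that step. Leaving out control replicate 1 or a knockdown-labelled library ended each of the 4 calls, with adjusted p up to 0.102 for DDX24, 0.111 for DDX55, 0.140 for DDX18 and 0.164 for DDX10.

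DDX21, an abundant nucleolar helicase, stood at 55.09, 54.97 and 54.31 RPKM in the knockdown-labelled libraries, against 74.54, 36.32 and 82.84 RPKM in the control-labelled libraries. Control replicate 2 lay below all knockdown-labelled libraries and the other controls above them (−0.37 ± 0.22, adjusted p = 0.254, edgeR). Its paralog DDX50 went the other way in that library, at 28.40, 28.84 and 28.76 RPKM in the knockdown-labelled libraries, against 31.71, 49.92 and 32.71 RPKM in the control-labelled libraries (−0.63 ± 0.27, adjusted p = 0.126). The RPKM ratio of DDX21 to DDX50 was 1.94, 1.91 and 1.89 in the knockdown-labelled libraries, against 2.35, 0.728 and 2.53 in the control-labelled libraries. Control replicates 1 and 3 thus lay above, and control replicate 2 below, the ratios of the knockdown-labelled libraries. Without control replicate 2 both genes were called lower, DDX21 at −0.59 (adjusted p = 0.000161) and DDX50 at −0.24 (adjusted p = 0.0194).

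DHX33 and DHX37, the DEAH-box members of the nucleolar group, stood at 0.34 ± 0.21 and 0.43 ± 0.27 (adjusted p = 0.275 and 0.286, edgeR), and at 0.14 and 0.16 without control replicate 2. DDX47 was measured at only 0.61 to 0.91 RPKM in the knockdown-labelled libraries and 0.85 to 1.11 RPKM in the control-labelled libraries, and 36.5% of its exonic bases are also annotated to APOLD1. The other members that were not called, DDX27, DDX31, DDX49, DDX52 and DDX54, lay between −0.21 and 0.19.

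Among the 3 members with a role in innate RNA sensing, both that passed the filter fell, at low levels, where 14.7% of all genes tested fell. DDX60, an antiviral helicase induced by interferon, stood at 0.38, 0.33 and 0.28 RPKM in the knockdown-labelled libraries, against 1.12, 0.42 and 1.23 RPKM in the control-labelled libraries (−1.62 ± 0.33, adjusted p = 0.0161, edgeR). DDX58, or RIG-I, a sensor of viral RNA, stood at 1.64, 1.58 and 1.47 RPKM, against 2.08, 1.74 and 2.06 RPKM in the control-labelled libraries (−0.50 ± 0.14, adjusted p = 0.0381). The groups of both genes did not overlap, though control replicate 2 lay close to the knockdown-labelled libraries. With trends removed DDX60 stood at −1.04 ± 0.28 (adjusted p = 0.0446) and DDX58 at −0.04 ± 0.13 (adjusted p = 0.855). Both calls ended without control replicate 1 or a knockdown-labelled library (adjusted p up to 0.0833 and 0.185). DHX58, or LGP2, a relative of RIG-I, had at most 2 counts in any library. Of the related genes outside the name rule, IFIH1 (0.14 ± 0.33, adjusted p = 0.770) and DDX60L (−0.65 ± 0.31, adjusted p = 0.166) were not called by edgeR.

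The mitochondrial helicases DDX28, an assembly factor of the mitochondrial ribosome, and DHX30, of mitochondrial RNA granules, were not called (0.31 ± 0.13, adjusted p = 0.111, and 0.01 ± 0.19, adjusted p = 0.973, edgeR). DDX28 nonetheless stood at 11.06, 12.33 and 12.52 RPKM in the knockdown-labelled libraries, against 8.89, 7.93 and 8.69 RPKM in the control-labelled libraries, with no overlap. Without control replicate 2 it was called higher (0.38, adjusted p = 0.0101). Exons of the gene DUS2 on the other strand cover 22.5% of its exonic bases, and whether the counting used strand is not stated.

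Of the 4 helicases known from the germ line, DDX4, DDX43 and DDX53 had at most 3 counts in any library, and DDX25 had 16 to 27 counts in the knockdown-labelled libraries and 2 to 9 in the control-labelled libraries (1.38 ± 0.49, adjusted p = 0.0801, edgeR). The single count of DDX53 fell in control replicate 3, and a count of 0 allows up to 3 counts, or at most 0.0572 RPKM in the shallowest library, for counting error only. DHX57, DDX59, DHX32 and DHX40, whose roles are less defined, were not called and lay between −0.20 and 0.11. The last 2 members carry the name only. DDX11, a DNA helicase of sister chromatid cohesion, stood at 0.13 ± 0.13 (adjusted p = 0.49) and its level is uncertain, since it has a near-identical copy, DDX12P, and how the counting split reads between them was not tested. DDX12P was counted at 10.09 to 11.38 RPKM in the knockdown-labelled libraries and 6.88 to 9.33 RPKM in the control-labelled libraries. DDX26B, a relative of an Integrator subunit, stood at 0.11, 0.42 and 0.09 RPKM in the knockdown-labelled libraries, against 0.33, 0.43 and 0.27 RPKM in the control-labelled libraries (−0.93 ± 0.61, adjusted p = 0.297), with knockdown replicate 2 at the level of the controls. Without that library DDX26B was called lower (adjusted p = 0.043).

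**Figure D3:**
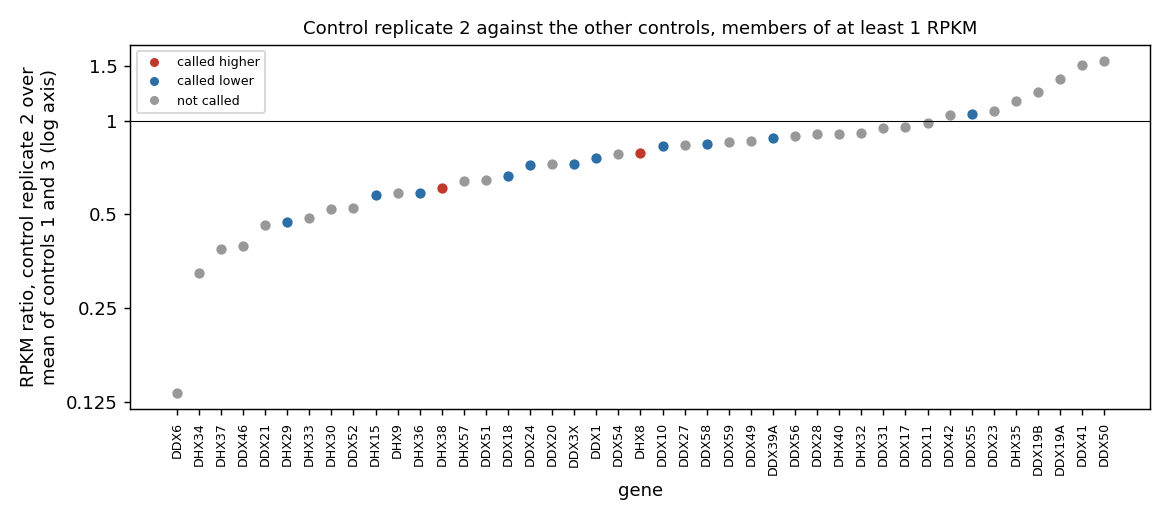
RPKM of control replicate 2 divided by the mean of control replicates 1 and 3 (y axis, log scale), for the 43 helicase genes (x axis) with a mean of at least 1 RPKM, coloured by call. Values run between 0.134 for DDX6 and 1.55 for DDX50, and most lie under 1. RPKM leaves out the TMM factor, which was 0.812 in control replicate 2.

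Control replicate 2 was the lowest of the 3 controls in RPKM for 35 of the 48 tested helicase genes and the highest for 11, where over all genes tested it was the lowest for 59.8% and the highest for 26.9%. The 54 helicase genes together took 0.654%, 0.618% and 0.627% of all counts in the knockdown-labelled libraries, against 0.729%, 0.565% and 0.763% in the control-labelled libraries. The combined share was thus lowest in control replicate 2 and highest in the other controls. These shares and the RPKM values use plain library totals and leave out the TMM factor, which was 0.812 in control replicate 2. A lower share or RPKM in that library therefore does not show a lower helicase level on the scale of the main fit.

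The change of a helicase gene went with the A content of its transcript. Across the 48 tested helicase genes, the log2 fold change and the percentage of A in the longest annotated transcript had Pearson's r = −0.42 and Spearman's rho = −0.50, beside −0.41 and −0.41 across the 17302 tested genes with an annotation. Genes share these libraries and are not independent, so the values are descriptions. Among the 24 helicase genes with an A content at or above their median of 27.06%, 8 fell and 1 rose, with a median of −0.41. Among the 24 below it, 5 fell and 1 rose, with a median of 0.11. Over all genes tested, of any A content, 14.7% fell and 9.29% rose. With trends removed the medians of the A-richer and A-poorer genes were −0.13 and −0.19, with 4 and 7 lower, beside 13% of all genes lower. DHX36, DHX29, DDX1 and DDX60, all at over 30% A, stood at −1.10, −0.66, −0.57 and −1.04 in that fit and were called. DDX10 and DDX58, also at over 30% A and called with all libraries, stood at −0.05 and −0.04 there and were not called, and DDX46, at 33.5% A, stood at 0.27, beside −0.62 before.

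**Figure D4:**
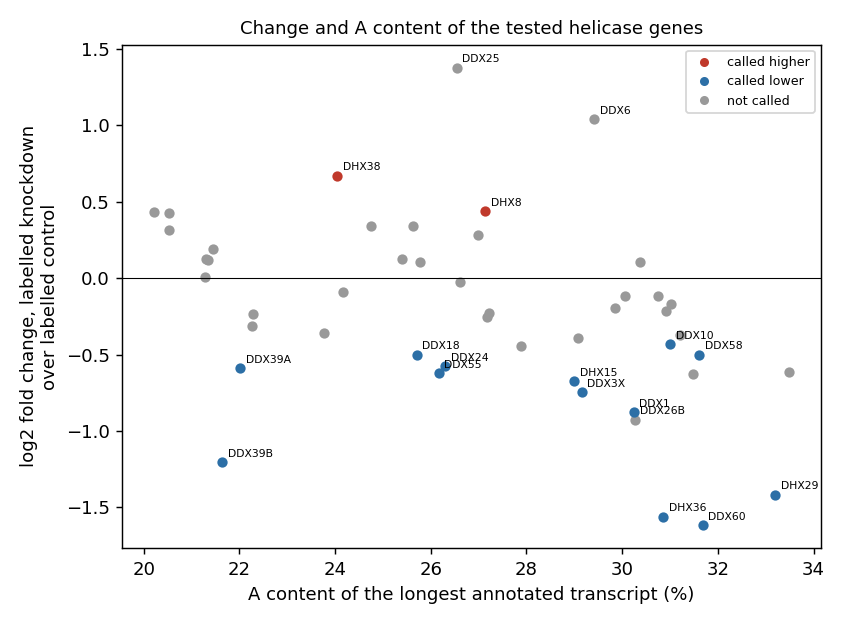
Log2 fold change, knockdown-labelled libraries over control-labelled libraries (y axis), against the A content of the longest annotated transcript (x axis, percent), one point for each of the 48 tested helicase genes. Genes rich in A lie lower, with DHX36, DHX29 and DDX60 at the lower right, and DDX39B is an exception with 9 to 17 counts per library.

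**Figure D5:**
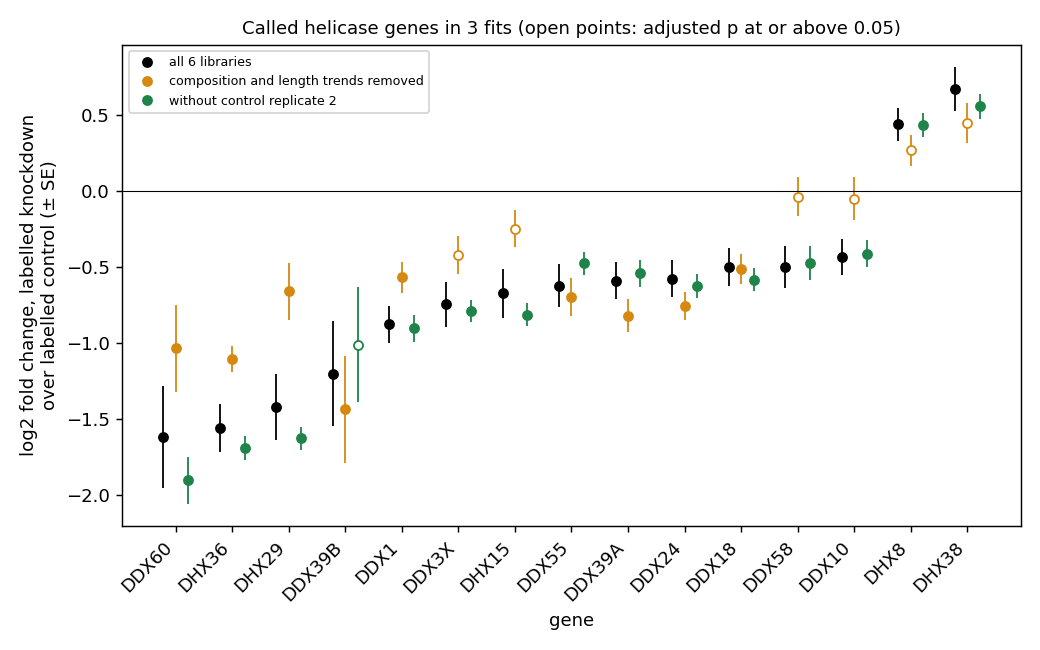
Log2 fold change with SE (y axis) of the 15 called helicase genes (x axis) with all 6 libraries (black), with composition and length trends removed (orange) and without control replicate 2 (green). Filled points have an adjusted p under 0.05, and 6 orange points and 1 green point are open.

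Helicases under other names, listed DEAD-box cofactors and G-patch proteins were called in both directions. Of 58 such genes, 54 were tested, of which 10 fell, 7 rose and 37 were not called, with a median log2 fold change of −0.24. Over all genes tested 14.7% fell and 9.29% rose, and the median was −0.04. By list, 1 of 20 tested helicases under other names fell and 2 rose. Of 14 MIF4G-domain and other DEAD-box cofactors, 4 fell and 3 rose. Of 20 tested G-patch proteins, some of which activate DEAH-box helicases, 5 fell and 2 rose. CWC22, which brings the DEAD-box helicase EIF4A3 to the spliceosome, stood at 1.95, 1.84 and 2.05 RPKM in the knockdown-labelled libraries, against 15.11, 11.39 and 14.66 RPKM in the control-labelled libraries (−2.98 ± 0.13, adjusted p = 0.000125, edgeR). UPF2, a partner of the decay helicase UPF1, stood at 2.71, 2.29 and 2.29 RPKM, against 11.04, 8.08 and 12.29 RPKM in the control-labelled libraries (−2.27 ± 0.14, adjusted p = 0.000283). SKIV2L2, or MTR4, the helicase of the nuclear exosome, stood at 6.15, 6.48 and 5.71 RPKM, against 21.93, 13.27 and 21.75 RPKM in the control-labelled libraries (−1.79 ± 0.15, adjusted p = 0.0007). The groups of these 3 genes did not overlap, and all 3 were still called with trends removed, at −1.89, −1.40 and −1.08.

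Of the genes that rose, IGHMBP2, a helicase of another superfamily, stood at 6.54, 6.66 and 7.13 RPKM in the knockdown-labelled libraries, against 3.23, 2.71 and 4.07 RPKM in the control-labelled libraries (0.86 ± 0.13, adjusted p = 0.0057, edgeR). GLE1, which activates DDX19 at the nuclear pore, stood at 41.02, 40.56 and 40.58 RPKM, against 24.77, 17.06 and 24.87 RPKM in the control-labelled libraries (0.71 ± 0.11, adjusted p = 0.00667). HELZ2, a nuclear coactivator with helicase domains, stood at 2.01, 1.90 and 2.06 RPKM, against 0.75, 0.34 and 1.02 RPKM in the control-labelled libraries (1.36 ± 0.29, adjusted p = 0.0175). Their groups did not overlap, and all 3 were still called with trends removed, at 0.49, 0.69 and 0.86.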

How the data were processed

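Total RNA of 6 HEK293 libraries was depleted of ribosomal RNA, treated with a bisulfite kit and made into stranded libraries, per the labels' protocols. Whether the table came from treated libraries, and its aligner and annotation, are not given in the sources used here. The authors deposited raw read counts per gene and RPKM values made from the same counts. Recomputed RPKM matched within 0.006 for 100% of values. Per the submitters' processing notes, HTSeq 0.6.1, StringTie 1, DESeq2 1.6.3, DESeq 1.18.0, edgeR 3.4.6 and bcl2fastq 2.17.1.14 were used with hg19, with no role stated. Columns were tied to samples by the second name in each description. Those names point to the opposite groups from the titles.

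Counts were tested by edgeR 4.0.16 under R 4.3.3 (quasi-likelihood F test, TMM, filterByExpr, robust), with both groups sharing the estimate of spread and Benjamini-Hochberg adjustment over 17805 genes at 0.05. Log2 fold changes are labelled knockdown minus labelled control, ± SE. The fit was tested on simulated counts in which all libraries shared the spread of each gene. They held no library that stands apart and no composition trend, so the fit was not tested under those conditions. Alternatives used DESeq2 1.42.0, limma 3.58.1 and mgcv 1.9.3. Base composition came from the longest GENCODE release 29 transcript, matched for 97.2% of tested genes, and DDX52 was not matched in that fit. Sequences are RefSeq promoter windows. Counts of every pair of libraries of a group differed by more than sampling noise, but unequally. The chi-square per degree of freedom was 3.89 to 6.97 for pairs of knockdown-labelled libraries. It was 26.2 for control replicates 1 and 3, and 205 and 277 for the pairs with control replicate 2. The shared estimate of spread does not separate the groups. The members and lists were chosen with earlier results of these data known. Values in every library are given for members past the threshold without overlap, the 5 most abundant, 4 paralog pairs, and the 3 other genes with the smallest p in each direction. Further members, and the related genes IFIH1 and DDX60L, were named after their values were seen.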

Additional observations from a re-analysis of the deposited data

How the results depend on the processing

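With upper quartile scaling, 12 of the 15 genes were called. With DESeq2 size factors, DESeq2, a minimum of 10 counts in 3 libraries, or no robust estimation, the counts of helicase genes called stayed within 1.5 times of 13 lower and 2 higher, and all 15 genes were called. The number lower and higher was 5 and 4 with plain library totals, 4 and 4 of 44 tested with limma-trend on log2(RPKM + 1), and 22 and 11 with voom and sample weights. Without a filter 8 of 54 were lower. With trends removed 1 was higher. Over the fits that left out 1 library, the count lower ran between 3 and 20 and the count higher between 0 and 9. With trends removed and control replicate 2 left out, tried after the data were seen, 20 were lower and 10 higher. The median of the helicase genes was −0.18 with trends removed, −0.10 when control replicate 2 was left out too, −0.0037 with limma-trend, −0.15 with no filter, −0.038 with plain totals, −0.16 with upper quartile scaling, −0.17 with voom, and −0.23 to −0.16 with 1 library left out. Shares of all genes called are given only for the main fit, the fit with trends removed and the fit without control replicate 2. In the other fits the counts of helicase genes cannot be set against the share of all genes called. The median of all genes also moved between fits, so the helicase medians are read beside it. It was −0.04 in the main fit, −0.08 with trends removed, 0.12 with limma-trend and 0.13 with plain totals. Without control replicate 2 it was 0.0046, where the helicase median was −0.16. The cause of the differences between fits was not tested.

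The replicate block gave 6 lower and 1 higher, and with trends removed too 8 lower, 0 higher and a median of −0.16. Same-numbered libraries deviated with correlations of −0.04, 0.06 and 0.001, and 2 of 6 correlated best with their own number. These values show no pairing by number, but so few libraries cannot exclude one.

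TRDMT1 was called higher with DESeq2 (0.64, adjusted p = 0.0195), plain totals (0.80), voom (0.66) and without control replicate 2 (0.79), with values of 0.45 to 0.79 when 1 library was left out. Of the genes that were not called, DDX17 changed sign, to 0.0021 with DESeq2 and with its size factors, 0.16 with limma-trend and with plain totals, 0.057 without a filter, 0.034 with upper quartile scaling, 0.074 with voom, and −0.086 to 0.071 with 1 library left out. DDX19A turned to −0.062 with trends removed, and ran between −0.0034 and 0.43 with 1 library left out. DDX21 turned to 0.11 with trends removed and 0.15 with the replicate block added, where DDX50 stood at 0.032.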
